A study of Mus musculus with 9 samples.

Results

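Accessible chromatin at 9 genes of granulocytes and monocytes was followed in mouse LSK cells, the lineage-negative, Sca-1-positive, Kit-positive bone marrow cells that include blood stem cells. The genes encode 5 granule or lysosomal proteins (Mpo, Elane, Prtn3, Ctsg and Lyz2), 3 receptors for colony-stimulating factors (Csf1r, Csf2ra and Csf3r) and 1 integrin chain (Itgam). A peak was assigned to a gene when its summit lay inside the gene span, or within 50 kb of it with that gene as the nearest protein-coding one. By this rule 141 of 328883 deposited peaks belonged to the 9 genes, and they formed 29 of 76253 regions when peaks that shared at least 1 bp were merged. Where a library had several peaks in a region, the one with the highest −log10 p stands for it. Regions are numbered per gene along the chromosome, and all coordinates are on GRCm38.

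ATAC-seq, in which the Tn5 transposase cuts and tags open DNA, was run on 9 libraries of 50000 LSK cells each. The groups were WT, Bcat_KO (loss of β-catenin), HOXA9_KO and PRMT1_KO, with 2 libraries each, and a dKO of β-catenin and Hoxa9 with 1 library, and the genotype tags call the mutants knockdowns where the titles say KO. The series text names transplanted Prmt1KO mice as the source of cells and does not say whether the other groups came from transplants. Neither promoter nor driver of the deletions is stated, age and strain are not given, and the labels leave unsaid whether replicates are separate mice, so p-values measure only the spread between these samples, which may be technical.

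Mature granulocytes and monocytes carry their effector proteins in granules and lysosomes, and they depend on colony-stimulating factors for production and survival. In early progenitors these genes are mostly not yet fully expressed, and open chromatin at a start or enhancer can precede transcription. PU.1, C/EBP, RUNX and MYB factors are known regulators of many of these genes. CD11b, the protein of Itgam, is commonly among the lineage antigens that a sort of LSK cells removes.

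The paired groups had 28325 to 45460 peaks per library, with WT replicate 2 the lowest and both WT libraries below every mutant library (39881 to 45460). The dKO had 10639 peaks. The background expected under a peak was at a median of 1.48 to 2.16 reads per library in the paired groups and 0.679 reads in the dKO. Whether depth accounts for peaks missing in the dKO was not tested. The weakest 100 peaks of a list had a median fold over local background of 2.80 to 3.03 in the paired groups. Among regions with a peak in all 8 lists, the median fold was 7.92 and 7.68 in WT and 9.15 to 9.77 in the mutants, so fold was lower in WT across the genome. In bulk cells, fewer cells of a type and less accessibility per cell cannot be told apart. Peaks on the male-specific part of chromosome Y numbered 0 in both WT libraries and 12 to 16 in the mutant libraries of the pairs. Sex and genotype therefore cannot be told apart in any comparison with WT.

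Marker genes did not set the cells apart by counts of peaks. Of 8 LSK genes, 5 had a peak in all 8 libraries, against 55.1% of all protein-coding genes. Of the 7 LSK genes with a listed start, 3 (Kit, Cd34 and Flt3) had a peak there in all 8 paired libraries, against 50.6% of 17491 genes. The start of Mecom had a peak in 7 of the 8, that of Cd48 in 5, Procr in 3 and Slamf1 in 2. Ly6a, the gene of Sca-1 by which LSK cells are sorted, had no listed start and a peak in 3 of the 8. Of the genes of other cells, a peak in all 8 libraries was found for 1 of 4 of B cells, 0 of 4 of T cells, 3 of 4 of erythroid cells, 2 of 5 of mature neutrophils, 3 of 5 of monocytes, 1 of 3 of mast cells and 4 of 4 of stroma. The B cell gene Cd79a, the T cell genes Cd3e and Cd8a and the neutrophil genes Ly6g and Ngp had no peak in any of the 8. The only marker region of another cell type to change class lay 21.2 kb from the collagen gene Col1a2 of stroma (chromosome 6, 4484129 to 4484614). It was opened in Bcat_KO by the rank rule given further on, with folds of 10.1 and 11.1, and had folds of 6.27 to 9.24 in the other paired mutants and no peak in WT. Its part in the results at the 9 genes was not tested. A region of the neutrophil gene Mmp8, described further on, differed between HOXA9_KO and PRMT1_KO in the rank test. Open chromatin at a gene does not show that its cell type was present.

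Promoters of 4 of the 5 granule genes are shown, 3 because they carry the same PU.1 letters and that of Lyz2 because it alone had a peak at the gene start in every paired library. The promoter of Ctsg, which holds no match to the motifs marked, is not shown. Each stretch runs from 250 bases before to 50 bases after the gene start in RefSeq (GRCm38.p6), 5′ to 3′ on the strand of the gene. Capitals mark matches on either strand to PU.1 (GAGGAAGT), RUNX (TGTGGTT), MYB (TAACNG) or C/EBP (TTGCNNCAA).
Mpo, chr11:87793534-87793833, plus strand: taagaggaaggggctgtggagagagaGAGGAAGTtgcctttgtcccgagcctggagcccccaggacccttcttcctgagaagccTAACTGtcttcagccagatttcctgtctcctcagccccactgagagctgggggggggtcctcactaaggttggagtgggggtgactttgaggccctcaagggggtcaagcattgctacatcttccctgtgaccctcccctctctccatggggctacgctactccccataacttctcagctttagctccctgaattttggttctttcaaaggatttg
Elane, chr10:79886062-79886361, plus strand: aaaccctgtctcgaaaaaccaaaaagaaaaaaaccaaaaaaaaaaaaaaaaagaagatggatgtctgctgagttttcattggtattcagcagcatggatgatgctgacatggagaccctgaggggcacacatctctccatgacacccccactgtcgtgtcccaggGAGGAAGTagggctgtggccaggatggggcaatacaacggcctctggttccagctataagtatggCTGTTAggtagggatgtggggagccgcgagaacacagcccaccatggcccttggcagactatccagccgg
Prtn3, chr10:79879417-79879716, plus strand: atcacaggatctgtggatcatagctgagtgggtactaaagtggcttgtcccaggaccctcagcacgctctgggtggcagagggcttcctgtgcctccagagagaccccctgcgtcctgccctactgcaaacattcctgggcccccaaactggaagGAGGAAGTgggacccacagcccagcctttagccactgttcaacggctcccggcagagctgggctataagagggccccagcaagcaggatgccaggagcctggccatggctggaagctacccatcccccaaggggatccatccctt
Lyz2, chr10:117282223-117282522, minus strand: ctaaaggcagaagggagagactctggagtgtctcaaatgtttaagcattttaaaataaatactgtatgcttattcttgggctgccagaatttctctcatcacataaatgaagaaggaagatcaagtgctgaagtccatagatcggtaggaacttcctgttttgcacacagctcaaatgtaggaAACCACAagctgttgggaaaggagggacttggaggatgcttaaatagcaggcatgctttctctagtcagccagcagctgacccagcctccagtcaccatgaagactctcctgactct
The PU.1 letters were found in the promoters of Mpo, Elane and Prtn3, which is 3 of the 8 member promoters in the table, and in 3.13% of 21262 promoters of protein-coding genes. They began at position -224 from the start in Mpo, -85 in Elane and -95 in Prtn3. The MYB letters were in 2 of the 8, Elane and Mpo, and in 21.0% of all promoters. The RUNX letters were in Lyz2 alone (4.71% of all promoters), and the C/EBP letters in Csf3r alone (1.79%). None of the 8 held the letters searched for HOX-PBX (TGATTNAT), which 2.75% of all promoters held, or those for AP-1 (TGANTCA), held by 6.99%. The GATA letters AGATAA, held by 9.65% of all promoters, and the TCF/LEF letters CTTTGAT, held by 3.22%, were also in none of the 8. No overlap between these matches occurred in the stretches shown, and a match of letters is not evidence of binding.

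**Figure D1:**
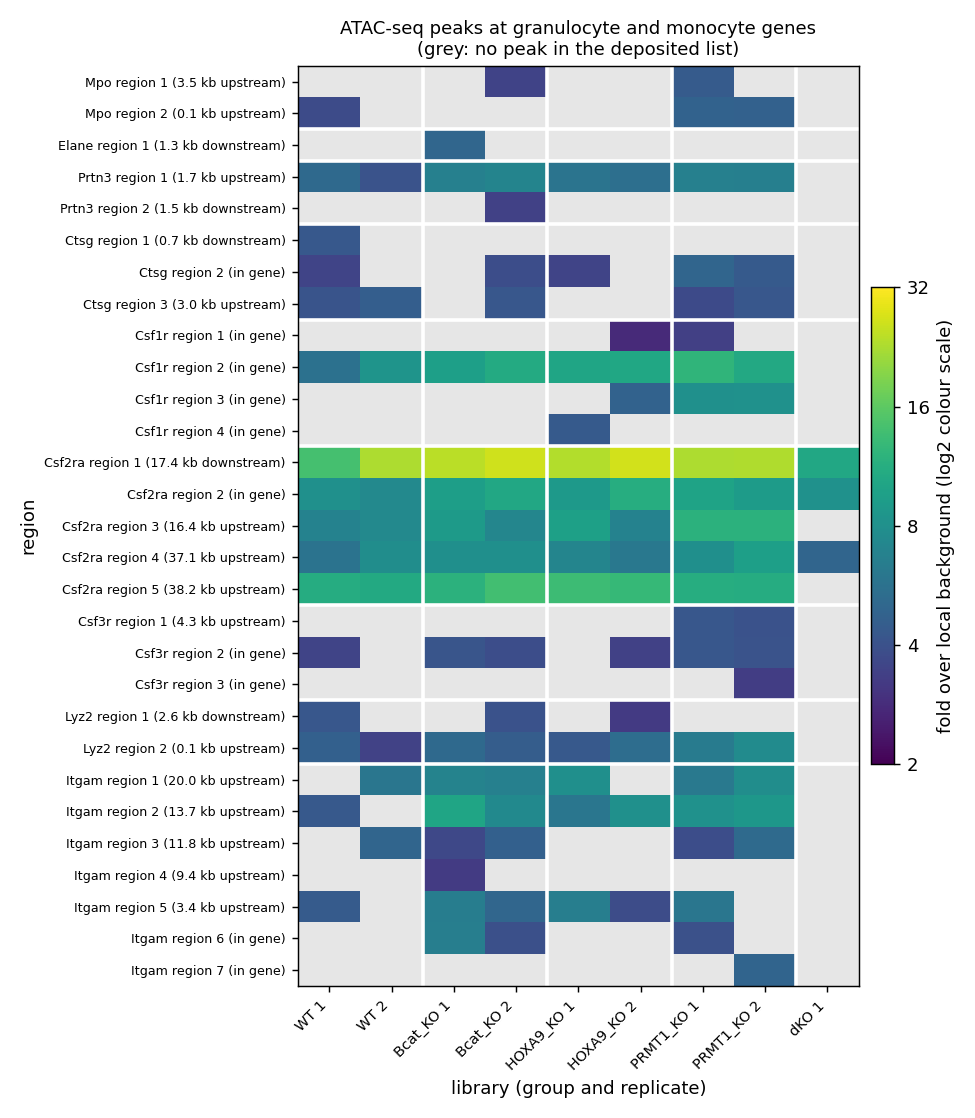
Fold over local background of each of the 29 regions (rows, grouped by gene) in each of the 9 libraries (columns), on a log2 colour scale. Grey marks a library whose list held no peak assigned to that gene in the region. Rows of Csf2ra are filled in all 8 paired libraries, while most rows of Mpo, Elane, Ctsg and Csf3r are grey or near the weakest values of the lists.

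The 9 genes differed widely in accessibility, and within the 50 kb window most regions found in every paired library belonged to Csf2ra. Of the 29 regions, 8 had a peak in all 8 paired libraries (background 25.5% of 75302 regions of these libraries). In 7 regions the peaks assigned to the member came from 1 library alone. In 1 of these, Elane region 1, HOXA9_KO replicate 2 also had an overlapping peak, assigned to Cfd. Csf2ra held 5 of those 8, and Csf1r, Prtn3 and Lyz2 held 1 each. At least 1 peak in every paired library was found at 5 of the 9 genes, against 55.1% of 21896 protein-coding genes. A peak within 1 kb of the gene start in every paired library was found at 1 of the 8 members with a listed start, against 50.6% of 17491 genes. The 9 genes together had 12 peaks in WT replicate 2 and 13 to 22 in the other paired libraries. Csf2ra accounted for 49 of the 141 peaks, or 34.8%. This share depends on the window. Within 10 kb Csf2ra had 10 peaks, against 14 for Csf1r, 12 each for Ctsg and Itgam, 11 for Lyz2 and 10 for Prtn3. Csf3r had 9 there, Mpo 5 and Elane 1. The room a gene has under the rule differs, from 4.79 kb around Elane to 87.0 kb around Itgam, since near neighbours take summits between them.

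**Figure D2:**
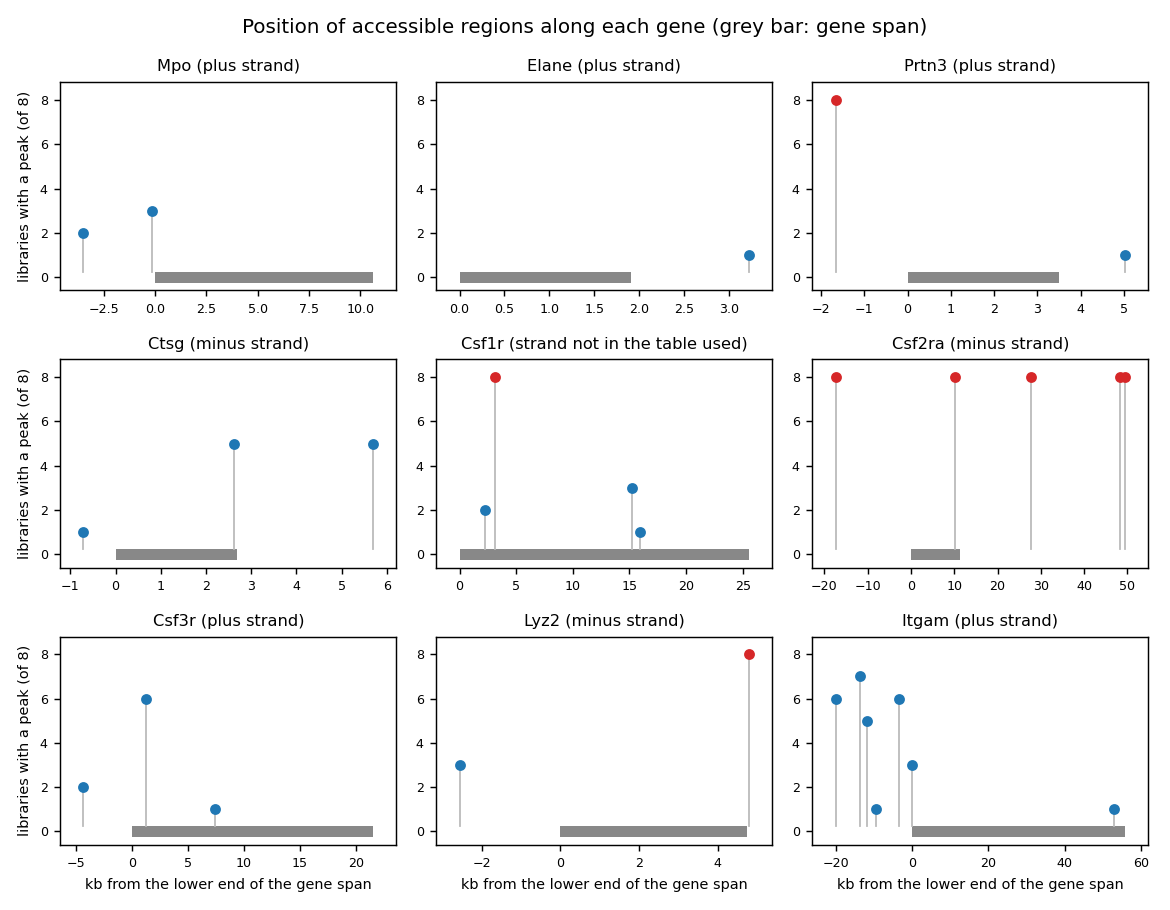
Position of each region in kb from the lower end of the gene span (horizontal axis) and the number of paired libraries with a peak assigned to the gene there (vertical axis, 0 to 8). There is 1 panel per gene, with the gene span as a grey bar and red for regions found in all 8. Regions of Itgam cluster upstream of the gene, and all 4 of Csf1r lie inside it.

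Mpo encodes myeloperoxidase, the haem enzyme of primary granules that makes hypochlorous acid. Its start (chromosome 11, 87793447 to 87793954) had a weak peak in 3 libraries, with a fold of 3.76 in WT replicate 1, 4.81 in PRMT1_KO replicate 1 and 4.75 in PRMT1_KO replicate 2. These peaks rested on 9, 14 and 13 reads at the summit. No peak was listed there in WT replicate 2, in Bcat_KO or in HOXA9_KO, so WT itself was split. A site about 3.5 kb upstream was listed in Bcat_KO replicate 2 (3.48) and PRMT1_KO replicate 1 (4.45). All Mpo peaks ranked 29212 or lower in their lists.

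Elane and Prtn3 encode neutrophil elastase and proteinase 3, serine proteases of primary granules, and lie side by side on chromosome 10. Neither had a peak within 1 kb of its start in any library. The only Elane peak, 1.32 kb beyond the gene end, had a fold of 4.99 in Bcat_KO replicate 1. HOXA9_KO replicate 2 had an overlapping peak whose summit was nearer to Cfd, the neighbouring gene of complement factor D.

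Prtn3 had 1 region present in every paired library, 1.67 kb upstream of its start (chromosome 10, 79877318 to 79878378). Its fold was 6.72 and 6.65 in PRMT1_KO, 5.79 and 5.52 in HOXA9_KO, 6.68 and 6.96 in Bcat_KO and 5.16 and 4.08 in WT. Means were 6.68 ± 0.0505 in PRMT1_KO, 5.65 ± 0.188 in HOXA9_KO, 6.82 ± 0.199 in Bcat_KO and 4.62 ± 0.764 in WT (SD, n = 2 each). Both WT values lay below all 6 mutant values, but this held for 31.0% of the 19172 regions with a peak in all 8 lists. In rank, where the general shift of fold cancels, WT and HOXA9_KO overlapped.

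Ctsg encodes cathepsin G, a further granule protease, and lies on chromosome 14. Its start (56102403 to 56102757) had a peak in 5 of the 8 libraries, at folds of 3.55 in WT replicate 1, 3.86 in Bcat_KO replicate 2, 3.53 in HOXA9_KO replicate 1, and 4.96 and 4.39 in PRMT1_KO. A region 3.01 kb upstream (56105104 to 56105997) was listed in both WT libraries (4.12 and 4.60), in Bcat_KO replicate 2 (4.23) and in both PRMT1_KO libraries (3.71 and 4.26), and in neither HOXA9_KO library. PRMT1_KO had both regions in both libraries, whereas the other groups had split libraries in at least 1 of them.

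Lyz2 encodes lysozyme M, an enzyme of mouse macrophages and granulocytes that cleaves bacterial cell walls. Among members with a listed start, it was the only one whose start (chromosome 10, 117281932 to 117282407) had a peak in all 8 paired libraries. The fold was 6.32 and 7.62 in PRMT1_KO, 4.36 and 5.38 in HOXA9_KO, 5.18 and 4.51 in Bcat_KO and 4.68 and 3.45 in WT. Both PRMT1_KO libraries were above the other 6, as at 3 of the 8 member regions with a peak in all 8 lists (Lyz2 region 2 and Csf2ra regions 3 and 4) and at 8.32% of all such regions. The other 3 groups overlapped. The summits carried 16 and 20 reads in PRMT1_KO and 6 to 11 in the other paired libraries, with the 6 in WT replicate 2. At a −log10 q of at least 5, Lyz2 kept a peak in 4 of the 8 libraries. The ranks ran from 16222 in PRMT1_KO replicate 2 to 34960 in Bcat_KO replicate 2. Since some of them lie past 28325, the length of the shortest list, the region did not enter the test of regions found in all 8 shortened lists.

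Csf2ra encodes the ligand-binding alpha chain of the GM-CSF receptor and had the strongest regions of the 9 genes. The strongest lay 17.4 kb beyond its end on chromosome 19 (61199361 to 61200198). There the fold was 22.9 and 23.0 in PRMT1_KO, 23.3 and 26.6 in HOXA9_KO, 24.0 and 26.3 in Bcat_KO, 14.2 and 22.8 in WT and 10.5 in the dKO. WT replicate 1 stood apart at rank 2028, and the other 7 paired libraries had it at ranks 190 to 450. The summit carried 63 and 90 reads in WT, 105 to 119 in the mutants and 19 in the dKO. The background expected there was 2.99 to 4.25 reads in the paired libraries, and 7.28 to 12.1 reads at region 2. The highest median of a paired library was 2.16 reads. What this higher background means for these peaks was not tested.

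A broad region of 2351 bases began inside Csf2ra, with its summit 1.11 kb past the gene start (61225509 to 61227859). Its fold was 10.0 and 9.20 in PRMT1_KO, 8.92 and 11.3 in HOXA9_KO, 9.47 and 10.5 in Bcat_KO, 8.05 and 7.36 in WT and 8.13 in the dKO. No paired library had a summit within 1 kb of the start of Csf2ra. The upstream region farthest from the gene, at 38.2 kb (61266265 to 61267163), had folds of 11.3 and 11.1 in PRMT1_KO, 13.3 and 12.8 in HOXA9_KO, 11.8 and 13.9 in Bcat_KO and 11.2 and 10.8 in WT. Its neighbour at 37.1 kb ranged from 5.73 to 9.56 and was listed in the dKO at 4.97. The next peak that has Csf2ra as its nearest gene, outside the window, lay 103 kb away. A region 16.4 kb upstream (61244637 to 61245317) had folds of 11.9 and 11.8 in PRMT1_KO, 9.71 and 6.83 in HOXA9_KO, 9.07 and 7.15 in Bcat_KO and 6.81 and 7.38 in WT, so PRMT1_KO lay above the other groups, a pattern of 8.32% of all regions with a peak in all 8 lists. The 3 dKO peaks at the 9 genes all belonged to Csf2ra.

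Csf1r encodes the receptor for macrophage colony-stimulating factor, and all 4 of its regions lay inside the gene on chromosome 18. The tables used give neither its strand nor its exons. The region 3.11 kb from the lower end of the span (61108130 to 61109041) was open in all 8 paired libraries. Its fold was 12.3 and 10.7 in PRMT1_KO, 10.3 and 10.4 in HOXA9_KO, 9.61 and 10.9 in Bcat_KO and 5.61 and 8.42 in WT. The means were 7.02 ± 1.99 in WT and 11.5 ± 1.19 in PRMT1_KO, while Bcat_KO stood at 10.3 ± 0.929 and HOXA9_KO at 10.3 ± 0.135 (SD, n = 2 each). No peak was listed in the dKO. Both WT libraries lay below all 6 mutant libraries in fold and in rank, where WT held ranks 16246 and 9059 and the mutants 4588 to 8944. The rank pattern held for 9.02% of the 15951 regions found in all 8 equal-length lists, and among the 7 member regions there it held for this 1. The reverse held for 0 of the 7 (9.36% of all) in rank and, in fold, for 0 of 8 (0.553%).

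A region 15.2 kb from the lower end of Csf1r (61120630 to 61120867) was listed in both PRMT1_KO libraries at folds of 8.0 and 8.09, on 23 and 22 reads. It was also listed in HOXA9_KO replicate 2 at 4.77, and in no WT or Bcat_KO library. A peak in both PRMT1_KO libraries and in neither WT library was found at 2 of the 25 member regions these 4 libraries held, against 8.94% of all such regions, so the share is near the background. The others of Csf1r, at 2.23 and 15.9 kb, were listed in 2 libraries and in 1 library at folds of 2.78 to 4.39.

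Csf3r encodes the receptor for granulocyte colony-stimulating factor and had weak peaks only. Its listed start on chromosome 4 (126024352 to 126024974) was open in 6 of 8 libraries, at folds of 3.52 in WT replicate 1, 4.14 and 3.87 in Bcat_KO, 3.42 in HOXA9_KO replicate 2 and 4.22 and 4.06 in PRMT1_KO. A narrow region 4.30 kb upstream of the span (126019103 to 126019260) was listed in both PRMT1_KO libraries (4.22 and 4.0) and in none of the other 6. It rested on 10 and 9 reads. Among the 29 regions it was the only one found in both libraries of 1 group alone, and 1.03% of all regions were found in PRMT1_KO alone in this way.

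Itgam encodes CD11b, the alpha chain of the integrin Mac-1 on myeloid cells, which pairs with the beta chain of Itgb2. Of its 7 regions on chromosome 7, 5 lay upstream of the gene and none was open in all 8 libraries. The most frequent, 13.7 kb upstream (128048740 to 128049203), had folds of 8.16 and 8.65 in PRMT1_KO, 5.96 and 8.02 in HOXA9_KO, 10.2 and 7.43 in Bcat_KO and 4.35 in WT replicate 1, and no peak in WT replicate 2. WT, the group with the fewest peaks, thus had 1 value, which was the lowest. A region 20.0 kb upstream (128042240 to 128042950) was listed in 6 libraries at 5.91 to 7.95 and was missing in WT replicate 1 and HOXA9_KO replicate 2.

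The start of Itgam (128062566 to 128062764) had a peak in both Bcat_KO libraries (6.52 and 3.91) and in PRMT1_KO replicate 1 (4.0). No peak was listed there in WT or HOXA9_KO. A peak in both Bcat_KO and neither WT library was found at this 1 of 23 member regions, against 9.15% of all regions of those libraries. The upstream region at 3.41 kb was listed in 6 libraries at folds of 3.81 to 6.55, in 1 of the WT libraries.

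**Figure D3:**
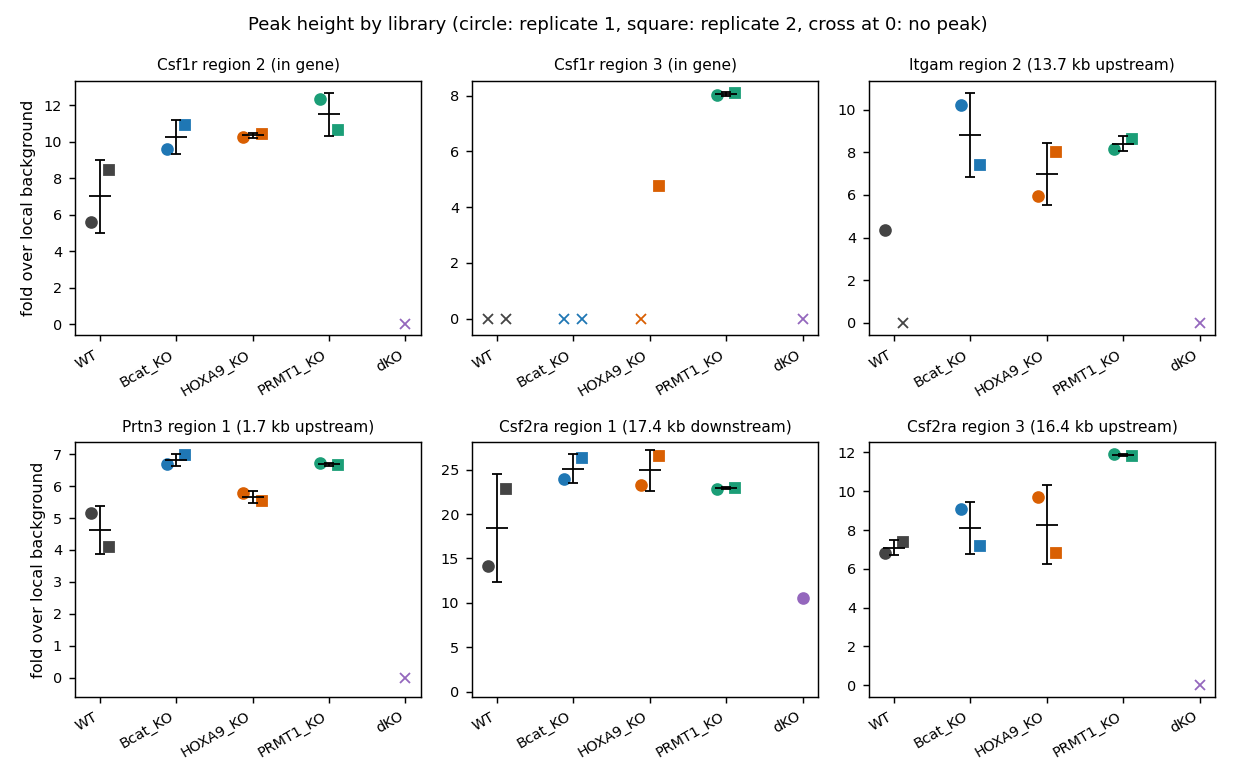
Fold over local background (vertical axis) at 6 regions by group, with 1 point per library, the mean as a horizontal line and the SD (n = 2) as the error bar where both libraries had a peak, and a cross drawn at 0 where no peak was listed. WT points lie below the mutants at Csf1r region 2 (5.61 and 8.42 against 9.61 to 12.3), and Csf1r region 3 has peaks at 8.0 and 8.09 in PRMT1_KO.

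Differences between genotypes were tested on ranks, because peak values of different libraries are not normalized to each other. The ranks by −log10 p over the regions found in all 8 lists, each shortened to its 28325 strongest peaks, were turned into normal scores, on which a higher value means a stronger peak. Of the 29 regions 7 entered this test, namely 5 of Csf2ra and 1 each of Csf1r and Prtn3, and 0 of the 7 passed an adjusted p of 0.05 in any of the 6 comparisons (limma, two-sided, Benjamini-Hochberg over 15951 regions). Over all regions 35 (0.219%) were called in Bcat_KO against WT, 119 (0.746%) in HOXA9_KO against WT and 0 (0.0%) in PRMT1_KO against WT. In the last, 2353 regions had an unadjusted p under 0.05. Between mutants 0 (0%) were called in Bcat_KO against HOXA9_KO and in Bcat_KO against PRMT1_KO, with 1616 and 1271 at an unadjusted p under 0.05, and 100 (0.627%) in HOXA9_KO against PRMT1_KO.

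The largest difference from WT was at Csf1r. Region 2 was higher by 0.98 ± 0.33 (SE) in PRMT1_KO (limma adjusted p = 0.238), by 0.65 ± 0.33 in Bcat_KO (adjusted p = 0.351) and by 0.56 ± 0.33 in HOXA9_KO (adjusted p = 0.415). Without WT replicate 1 these became 0.49, 0.17 and 0.077, so their size rests on that library. Prtn3 region 1 was higher by 0.71 ± 0.29 (SE) in PRMT1_KO (limma adjusted p = 0.299) and by 0.65 ± 0.29 in Bcat_KO (adjusted p = 0.289), and without WT replicate 2 by 0.28 and 0.22. Csf2ra region 1 differed by 0.58 ± 0.32 (SE) in Bcat_KO, 0.44 ± 0.32 in HOXA9_KO and 0.26 ± 0.32 for PRMT1_KO (limma adjusted p = 0.393, 0.513 and 0.765). Without WT replicate 1 these became 0.063, -0.079 and -0.26, so the direction of the last pair rests on that library. Csf2ra region 3 differed by 0.65 ± 0.40 (SE) in PRMT1_KO and region 5 by -0.28 ± 0.22 (limma adjusted p = 0.495 and 0.589). The median difference from WT over the 7 regions was 0.27 for PRMT1_KO and 0.17 for each of the other 2 mutants, where all regions had medians of -0.02 to -0.01. The 3 comparisons share their WT libraries.

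**Figure D4:**
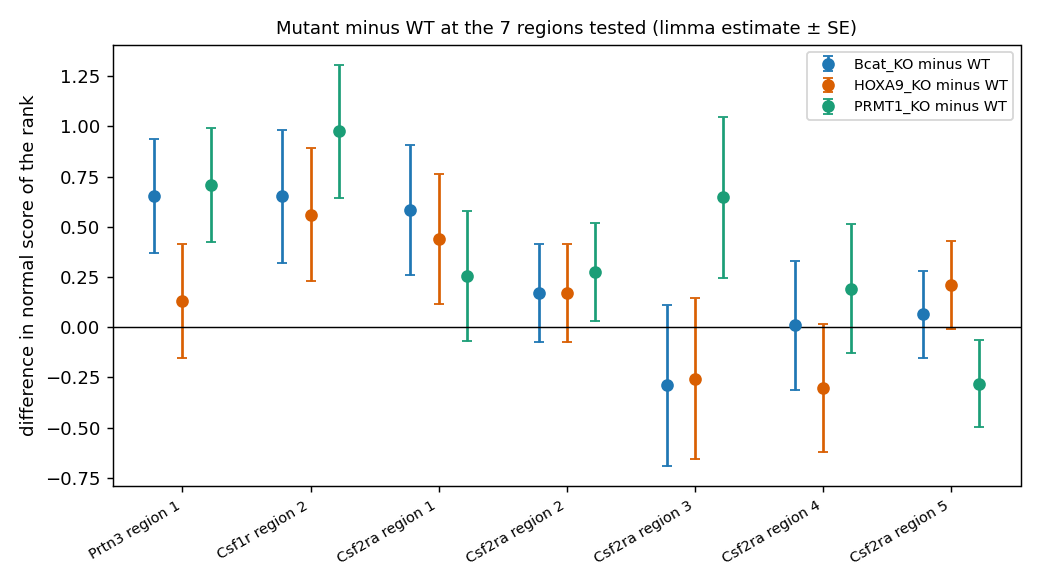
Difference in normal score of the rank between each mutant and WT (vertical axis, limma estimate with its SE) at the 7 regions tested (horizontal axis). The highest estimate is that of Csf1r region 2 in PRMT1_KO, at 0.98, and 0 of the 21 estimates passed the adjusted test.

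Peaks present in both libraries of one group and in neither of another were counted in the lists as deposited, which are longer in the mutants. Against WT, Bcat_KO gained 1 of 23 member regions (9.15% of all regions) and lost 0 (1.09%), HOXA9_KO gained 0 of 22 (8.78%) and lost 1 (1.92%), Ctsg region 3, and PRMT1_KO gained 2 of 25 (8.94%) and lost 0 (1.18%). Bcat_KO held 2 of 24 that HOXA9_KO lacked (4.38%), Itgam regions 3 and 6, and lacked 0 that HOXA9_KO held (2.66%). PRMT1_KO held 3 of 27 that Bcat_KO lacked (2.76%), Mpo region 2, Csf1r region 3 and Csf3r region 1, and lacked 0 that Bcat_KO held (3.17%). It held 4 of 26 that HOXA9_KO lacked (5.98%), Mpo region 2, Ctsg region 3, Csf3r region 1 and Itgam region 3, and lacked 0 that HOXA9_KO held (4.21%). Except for Csf1r region 3 and Itgam region 6, these peaks had folds of at most 5.20. No member region was in both libraries of WT alone (0.235% of all regions), of Bcat_KO alone (0.753%) or of HOXA9_KO alone (1.11%). The comparisons share libraries, and the median background under a peak was highest in PRMT1_KO replicate 1, whose part in these counts was not tested.

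In the shortened lists the ranks of both libraries lay above both WT ranks at 4 of 7 member regions in Bcat_KO (23.6% of all regions), 1 of 7 in HOXA9_KO (24.6%) and 4 of 7 in PRMT1_KO (23.0%). They lay below WT at 0 (25.2%), 0 (25.6%) and 1 (23.9%), the last being Csf2ra region 5. Between mutants, Bcat_KO was above HOXA9_KO at 2 (20.1%) and below at 0 (20.0%), and above PRMT1_KO at 2 (19.0%) and below at 1 (19.4%). HOXA9_KO was above PRMT1_KO at 2 (24.5%), Csf2ra regions 1 and 5, and below it at 3 (23.8%), Prtn3 region 1, Csf1r region 2 and Csf2ra region 3. By direction, calls over all regions were 0.194% higher and 0.0251% lower in Bcat_KO than in WT, 0.426% higher and 0.32% lower in HOXA9_KO than in WT, and 0.169% higher and 0.458% lower in HOXA9_KO than in PRMT1_KO, with 0 of the 7 members in each.

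Classes that need a strong peak held no member. No member region was closed (ranked 14162 or better in both WT libraries and beyond 28325 in both libraries of the mutant) or opened (the reverse) in any mutant. Over all 46847 regions of the shortened lists, 39 were closed (0.0832%) and 126 opened (0.269%) in the β-catenin mutant. For HOXA9_KO the counts were 75 (0.16%) and 209 (0.446%), and for PRMT1_KO they were 33 (0.0704%) and 88 (0.188%). Of the members 19 regions were in these lists. Csf1r region 3, at ranks 16212 and 14470 in PRMT1_KO, missed the opened class by its rank. Leaving out WT replicate 1 made Itgam region 2 opened in PRMT1_KO.

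Other genes of the same functions were read from lists chosen beside the members. Of 15 further granule genes 8 had a peak in all 8 libraries, and Ngp and Lcn2, both of secondary granules, had none in any. Of 6 genes of the phagocyte oxidase 5 had a peak in all 8, and so had 5 of 10 genes of the other colony-stimulating factor receptors, ligands and related kinases and 8 of 12 integrin and monocyte surface genes. Csf2rb, the beta chain that partners Csf2ra, had a peak in 7 of the 8, with a best rank of 20154. No region of these 4 lists was closed or opened in a mutant. Of their tested regions, 0 of 6 granule, 0 of 3 oxidase, 1 of 10 receptor and 0 of 9 surface regions were called higher in any mutant against WT, and 1 was called lower, at Ncf4. The called regions are described next. Leaving out any 1 of the 8 libraries removed the calls across the genome, also in comparisons between groups that kept both of their libraries. All comparisons come from 1 fit, with a shared set of regions and a shared estimate of the spread. This loss of calls therefore does not show which libraries the called regions depend on.

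Flt3 encodes a receptor kinase of multipotent progenitors, and a region inside it on chromosome 5 (147366138 to 147366806) was higher in Bcat_KO. Its fold was 10.8 and 14.1 in PRMT1_KO, 7.96 and 9.85 in HOXA9_KO, 11.4 and 12.2 in Bcat_KO and 4.73 and 4.78 in WT, with both WT values below all mutants. The difference in score from WT was 2.23 ± 0.26 (SE) in Bcat_KO (limma adjusted p = 0.0485). A further Flt3 region (147392551 to 147393213) was lower in HOXA9_KO, at 4.90 and 5.53, than in PRMT1_KO, at 9.49 and 11.3 (difference -2.30 ± 0.27 (SE), limma adjusted p = 0.0393). WT had 6.42 and 5.71 there and Bcat_KO 9.03 and 7.92. Mmp8, the gene of neutrophil collagenase, had a region inside it (chromosome 9, 7567097 to 7567744) at folds of 6.62 and 6.96 in HOXA9_KO against 14.3 and 13.9 in PRMT1_KO (difference -2.03 ± 0.25 (SE), limma adjusted p = 0.0393). WT and Bcat_KO lay between or near these, at 7.10 to 11.7.

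Itgal encodes the alpha chain of the integrin LFA-1. A region inside it on chromosome 7 (127295917 to 127296621) had folds of 6.09 and 6.80 in HOXA9_KO and 11.6 and 10.6 in PRMT1_KO (difference -1.41 ± 0.20 (SE), limma adjusted p = 0.0411). WT had 6.60 and 6.64, within the HOXA9_KO values, and Bcat_KO 7.33 and 8.35, so PRMT1_KO stood apart in fold. Ncf4 encodes p40phox, a cytosolic oxidase subunit. A region inside it on chromosome 15 (78244674 to 78245210) was lower in HOXA9_KO, at 5.29 and 5.44, than in WT, at 7.43 and 8.65 (difference -1.62 ± 0.27 (SE), limma adjusted p = 0.0467). Bcat_KO had 6.60 and 6.70 there and PRMT1_KO 8.08 and 9.52. At the 3 member genes with a tested region, Csf2ra, Csf1r and Prtn3, 0 of 7 regions passed this test between HOXA9_KO and PRMT1_KO. Without the filter on presence, Csf1r region 3 alone of 19 member regions was called in HOXA9_KO against PRMT1_KO, as were 1671 of 46847 regions. It had a peak in the shortened lists of PRMT1_KO alone, and libraries without a peak took the rank past the end. That call therefore restates presence, and no difference in strength is drawn from it. The 7 regions had a median of -0.42 in that comparison, where all regions had 0.01.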

How the data were processed

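The measurements are ATAC-seq peak lists of LSK cells. Per the submitters' processing notes, the authors used Bowtie2 2.4.2, SAMtools 1.14, Picard 2.27.4 and MACS2 with GRCm38/mm10, and, per the file headers' peak names, took out duplicate and unmapped reads. The deposited lists, 1 per library, hold a score, the fold over local background (a ratio), the −log10 p and −log10 q, and the summit position. The caller settings are not given in the sources used here.

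Peaks were assigned to protein-coding genes of RefSeq GRCm38.p6. Reads at a summit were recovered from fold and p (141 of 141 member peaks within 1%) and cover counting error only. Ranks were tested with limma 3.58.1 (R 4.3.3, no covariate), checked on simulated data, over the 4 groups with 2 libraries. The dKO entered no test. The alternatives were another window, threshold, overlap, ranking, filter, scale, a block and leaving out each library. No genome was used, so motifs were searched in the RefSeq promoters and not around summits, which had been the plan. By rule, the text names the region at the start, the strongest, and every called or group-specific region of each member, and called regions of the lists. Members and lists were chosen with earlier results of these data known.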

Additional observations from a re-analysis of the deposited data

How the results depend on the processing

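The member counts were stable in part. With a window of 10 kb the member peaks numbered 84 and with a −log10 q of at least 5 they numbered 90, in place of 141. Csf2ra had 10 and 47 of these, in place of 49. Merging only at 50% overlap again gave 29 regions. In the lists as deposited no rank limit was set. Opened there means only a peak in both mutant libraries and in neither WT library, and closed the reverse. These are the regions counted above as gained or lost. Itgam region 6 was opened in Bcat_KO, 1 of 23 member regions (9.15% of all regions). Csf1r region 3 and Csf3r region 1 were opened in PRMT1_KO, 2 of 25 (8.94%). Ctsg region 3 was closed in HOXA9_KO, 1 of 22 (1.92%). With the rank limits kept, leaving out 1 library at a time gave 0 to 1 opened member regions in PRMT1_KO and 0 to 0 in every other case.

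Calls across all regions depended on the setting. Ranking by fold gave 1 call in Bcat_KO against WT, 81 in HOXA9_KO against WT and 36 in HOXA9_KO against PRMT1_KO. It gave 0 in PRMT1_KO against WT, in Bcat_KO against HOXA9_KO and in Bcat_KO against PRMT1_KO. Without the filter on presence 46847 regions were tested. A library without a peak took the rank just past the end of its shortened list. Calls against WT were then 1111 in Bcat_KO, 2315 in HOXA9_KO and 860 in PRMT1_KO. Between mutants there were 482 in Bcat_KO against HOXA9_KO, 0 in Bcat_KO against PRMT1_KO and 1671 in HOXA9_KO against PRMT1_KO. In that setting 1 of 19 member regions was called in HOXA9_KO against WT (Ctsg region 3). Csf1r region 3 was called, as 1 of 19, in PRMT1_KO against WT and in HOXA9_KO against PRMT1_KO. In the shortened lists Ctsg region 3 had peaks in WT alone and Csf1r region 3 in PRMT1_KO alone. Each entered only through the group where it was high, so these calls restate presence. No difference in strength is drawn from them. On the log2 of the rank, HOXA9_KO against WT had the most calls, 175, where the main test had 119. PRMT1_KO against WT gave 10 calls there, and Bcat_KO against WT gave 20. HOXA9_KO against PRMT1_KO gave 3, and Bcat_KO gave 1 against HOXA9_KO and 1 against PRMT1_KO. With the replicate number as a block there were 0 calls in each of the 6 comparisons. The differences between replicate 1 and replicate 2 correlated between groups at -0.01 to 0.04 across regions. The labels do not say what same-numbered libraries share, and an effect of it on some regions was not tested. Leaving out any 1 library gave 0 to 0 calls in each comparison. The cause of these shifts was not tested.

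Of 120 recomputed values of the 10 member differences given in the text, 118 kept their direction and 0 passed an adjusted p of 0.05. The exceptions were Csf2ra region 1 without WT replicate 1. Over the libraries left out it ranged from -0.079 to 0.95 in HOXA9_KO against WT and from -0.26 to 0.77 in PRMT1_KO against WT. Over the libraries left out, Csf1r region 2 ranged from 0.49 to 1.38 in PRMT1_KO against WT. No group had the 4 libraries an outlier test needs. Regions near a fold of 3 lie at the weakest values of the lists, and what depth contributes there was not tested.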
